A study of Mus musculus with 24 samples.

Results

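Low-dose JQ1 was examined in 4 contexts: Th1 and Th2 cells, each unstimulated or reactivated. JQ1 is a small molecule that occupies the acetyl-lysine pocket of BET proteins and so displaces them from chromatin. The members were 8 of the 24 arrays of the series: 4 arrays of cells given 50 nM JQ1 for 6 hr and the 4 DMSO (vehicle) arrays of the same contexts, chosen by dose and context and by no measured value. Each context was therefore a pair of 1 JQ1 and 1 DMSO array. The study made these arrays to ask how far gene expression in T helper cells depends on BET proteins and on the elongation kinase P-TEFb.

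All cells were CD4+ T cells of female C57BL/6 mice, differentiated in vitro under Th1 or Th2 polarizing conditions. Reactivated cells had been stimulated again and unstimulated cells had not. Every array carried the sample RNA in Cy3 and RNA of naive CD4+ T cells, sorted on surface markers, from lymph nodes and spleens in Cy5, so each value below is a log2 ratio of sample over naive. The Th1 controls were the DMSO arrays of 6 hr. For the Th2 DMSO arrays the title gave 24 hr but another label 6 hr, and their time is unclear. Both Th1 pairs were hybridised on 1 slide, whereas the Th2 JQ1 arrays lay on another slide than their controls, so slide, time and drug cannot be told apart in Th2 cells. Each condition had 1 array, and the spread that enters the tests is that of the JQ1 effect between contexts.

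BET proteins read acetylated lysines on histones. They help to bring P-TEFb to promoters and enhancers, where the kinase releases paused RNA polymerase II into elongation. P-TEFb is itself held inactive by Hexim1 within the 7SK particle. In T helper cells, genes of cytokines and their receptors carry dense enhancers, called super-enhancers, that are rich in acetylated histones, and T-bet (the product of Tbx21) and Gata3 specify the Th1 and Th2 lineages.

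The sample channel was well above background for 48.8% to 51.1% of probes on the JQ1 arrays and for 48.8% to 52% on the DMSO arrays. T cell defining markers were well above background on all 8 arrays. Tbx21 and Ifng marked Th1 cells, at 5.41 and 7.15 in unstimulated Th1 cells with DMSO against -0.02 and 0.65 in Th2 cells, and Gata3 marked Th2 cells, at 1.95 against -0.52. In reactivated Th2 cells with DMSO, however, these Th1 markers were high as well, with Tbx21 at 4.64 and Ifng at 6.20 against 6.11 and 8.59 in reactivated Th1 cells. Il4, the defining Th2 cytokine, stood at 8.02 in reactivated Th2 and 3.07 in reactivated Th1 cells.

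At 50 nM, JQ1 raised Hexim1 and 5 of 43 histone genes. It lowered 11 of 22 cytokines and TNF family ligands, 9 of 19 costimulatory and inhibitory receptors and 9 of 23 interferon-stimulated genes, with none of these lists holding a gene that rose. The lists were chosen with earlier results of these data known, so their shares are descriptions, with no test. Under alternative signals, scalings, filters, blocks and array sets many of these calls were lost. Among the genes lowered in these lists, the call held in 4 of 18 alternatives for Oasl2, the fewest. It held in 14 of 19 for Il21, Osm and Tnfrsf25, the most. Of 12732 genes tested, 356 rose and 591 fell with JQ1 (limma with the context as a block, Benjamini-Hochberg adjusted p below 0.05). The share called was 7.44%, with 2.8% higher and 4.64% lower. All 356 that rose were higher in 4 of 4 contexts, and 580 of the 591 that fell were lower in 4 of 4. Over all genes tested, 13.5% were higher and 17.2% were lower in 4 of 4 contexts. The changes were small. The median called rise was 1.30-fold and the median called fall 1.31-fold. Only 36 of the called genes rose and 79 fell by at least 1.5-fold, and 2 rose and 3 fell by at least 2-fold.

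The number of called genes rested on the pairing within contexts and on the processing. Without the context block no gene was called, and with the 4 arrays of 500 nM JQ1 in the same fit 33 genes were called higher and 13 lower. In the Th1 pairs alone, which share a slide, no gene passed, and in the Th2 pairs alone 84 were called higher and 168 lower. With median centring in place of loess the split was 174 higher and 830 lower, with spike-in scaling 47 and 52, and in the deposited table of log2 ratios 310 and 835. With the context block kept, 2 genes were called with the scanner software's log ratio and 54 with the slide as a fixed block. Without the unstimulated Th2 pair 292 were called.

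Genes are named here from those that changed in the same direction in 4 of 4 contexts. The gene with the largest rise was H2bc4, which encodes a histone H2B. With DMSO its value was -0.80 in unstimulated and -1.43 in reactivated Th1 cells, and -1.03 and -1.76 in unstimulated and reactivated Th2 cells. With 50 nM JQ1 the values were 0.56, -0.49, 0.23 and -0.61 in the same order. All 4 JQ1 arrays lay above all 4 DMSO arrays, which held for 0.746% of all genes tested. The fitted rise was 1.17 (log2, SE 0.08; limma, adjusted p 0.000322), or 2.26-fold. Copies of a histone type are nearly identical in sequence, and whether this probe also bound other H2B transcripts was not tested.

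Fam222a rose by nearly as much. Its values with DMSO were -0.96, -1.14, -0.63 and -1.04 in unstimulated Th1, reactivated Th1, unstimulated Th2 and reactivated Th2 cells. With JQ1 they were 0.32, -0.20, 0.62 and 0.08. Again the groups did not overlap, and the fitted rise was 1.15 (SE 0.08; limma, adjusted p 0.000322).

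Hexim1, the inhibitor of P-TEFb, rose in all contexts. It stood at -1.45, -1.69, -0.84 and -1.41 with DMSO and at -0.74, -1.29, -0.07 and -0.77 with JQ1, in the same order of contexts. Within every context the JQ1 array was higher, although the groups overlapped because the contexts differed. The fitted rise was 0.63 (SE 0.08; limma, adjusted p 0.00324).

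A few promoters are printed here as examples of the base composition that is counted over the called genes below. Of the 30 genes with the largest changes, 22 had an entry in a RefSeq promoter table of build GRCm38.p6 and 19 had exactly 1. Shown are the 2 largest rises and 2 largest falls among those 19, with Hexim1. Each sequence is the 250 bases before the annotated gene start, 5′ to 3′ on the gene's own strand, and capitals mark CpG dinucleotides. Fam222a lies at chr5:114568001-114568250 on the plus strand, Mpzl1 at chr1:165634542-165634791 on the minus strand and Hexim1 at chr11:103116075-103116324 on the plus strand. Upb1 lies at chr10:75406661-75406910 on the plus strand and Il21 at chr3:37232637-37232886 on the minus strand.
Fam222a: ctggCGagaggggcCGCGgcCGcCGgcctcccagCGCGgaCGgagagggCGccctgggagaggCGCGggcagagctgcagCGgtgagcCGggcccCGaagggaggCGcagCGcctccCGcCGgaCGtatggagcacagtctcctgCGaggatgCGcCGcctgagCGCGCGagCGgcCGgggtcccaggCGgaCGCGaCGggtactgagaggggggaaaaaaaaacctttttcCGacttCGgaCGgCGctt
Mpzl1: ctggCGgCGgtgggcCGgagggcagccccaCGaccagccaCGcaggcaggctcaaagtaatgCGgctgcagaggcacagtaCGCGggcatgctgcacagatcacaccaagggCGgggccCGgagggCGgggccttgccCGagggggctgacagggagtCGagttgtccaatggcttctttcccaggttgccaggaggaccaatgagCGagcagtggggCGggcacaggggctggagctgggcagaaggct
Hexim1: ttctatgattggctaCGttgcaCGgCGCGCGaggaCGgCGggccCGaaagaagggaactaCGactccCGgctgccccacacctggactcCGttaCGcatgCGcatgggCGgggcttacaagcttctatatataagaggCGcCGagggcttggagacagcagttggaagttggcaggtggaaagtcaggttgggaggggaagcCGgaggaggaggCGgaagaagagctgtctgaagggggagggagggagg
Upb1: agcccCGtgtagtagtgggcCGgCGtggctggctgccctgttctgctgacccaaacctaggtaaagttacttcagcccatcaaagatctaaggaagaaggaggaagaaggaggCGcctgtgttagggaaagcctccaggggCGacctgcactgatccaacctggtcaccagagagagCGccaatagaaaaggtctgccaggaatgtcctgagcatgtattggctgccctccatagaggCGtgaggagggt
Il21: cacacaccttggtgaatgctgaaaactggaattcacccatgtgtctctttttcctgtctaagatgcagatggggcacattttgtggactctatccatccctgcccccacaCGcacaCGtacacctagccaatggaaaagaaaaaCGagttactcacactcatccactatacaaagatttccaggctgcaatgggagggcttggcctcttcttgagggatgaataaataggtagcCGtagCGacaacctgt
The windows of the 3 genes that rose held 35, 15 and 18 CpG and 73.2%, 68.4% and 61.2% G and C. Those of Upb1 and Il21, which fell, held 7 and 5 CpG and 56.4% and 47.6% G and C.

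The 15 CpG of Mpzl1 equal the median of all genes tested. Over the called genes, the table had a promoter for 286 of the 356 genes that rose, 462 of the 591 that fell and 10212 of the 12732 tested, and where a gene had several entries the one listed first was used. The median window held 19.5 CpG among the genes that rose, 9 among those that fell and 15 among all genes tested. A window with 5 CpG or fewer was found for 6.29% of the genes that rose, 35.7% of those that fell and 17.8% of all tested. These shares are a description of the called genes, with no test.

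Motif letters were searched in the same windows on both strands. The GC box GGGCGG was present in 76.9% of the promoters of genes that rose, 44.2% of those of genes that fell and 57.1% of all tested. Those of the interferon response motif were present in 1.4%, 7.79% and 2.71%. TATAAA was found in 6.64%, 11.3% and 7.3%, the AP-1 letters TGANTCA in 1.05%, 5.19% and 4.48%, and those of the NF-kB motif in 0%, 2.38% and 1.14%. The E-box CACGTG was found in 8.74%, 6.28% and 8.37%. Over all 27025 genes with a promoter in the table the shares were 32.9% for the GC box, 3.04% for the interferon letters, 13% for TATAAA, 6.87% for AP-1, 0.94% for NF-kB and 6.05% for the E-box.

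**Figure D1:**
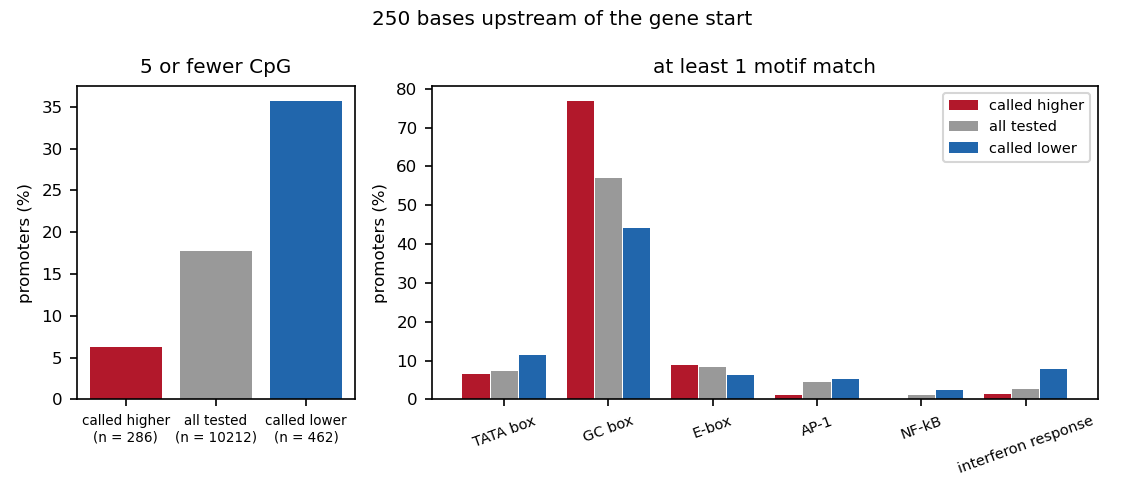
Left, the share of promoters (%, 250 bases upstream of the gene start) with 5 or fewer CpG among genes called higher (red), all genes tested (grey) and genes called lower (blue) with 50 nM JQ1. Right, the share with at least 1 match of each motif; the GC box is commonest among the genes called higher and the interferon response letters among those called lower.

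The other large rises were spread over several functions. Besides H2bc4 and Fam222a, the 15 largest rises included Clu (clusterin, a secreted chaperone), Mpzl1, Hs3st6 (a heparan sulfate sulfotransferase), Cirbp (a cold-inducible RNA-binding protein), Atp1b2 (a subunit of the sodium pump), H1f2 (a linker histone), Prkar2b (a regulatory subunit of protein kinase A), Ctsl (cathepsin L), Shb (an adaptor in receptor signalling), Aldh4a1 (proline catabolism), Sat1 (polyamine catabolism) and Dgat2 (triglyceride synthesis). Their fitted rises ran from 0.70 for Dgat2 to 0.88 for Clu (limma, adjusted p 0.00629 at most). The sample channel of all 15 was well above background on all 8 arrays. The naive channel was so on 8 arrays for H2bc4 and Fam222a but on 1 for Clu and on 2 for Hs3st6 and Atp1b2. In Cy3 alone the 15 rises ran from 0.58 to 1.16. In 6 of the 15, which were picked for their rises, the 4 JQ1 arrays lay above all 4 DMSO arrays, against 0.746% of all genes tested.

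Hs3st6 showed the most even rise of these. Its values were 1.39, 0.66, 1.16 and 0.97 with DMSO and 2.25, 1.48, 2.00 and 1.83 with JQ1, so that the difference lay between 0.82 and 0.86 in every context. For Prkar2b 3 probes were detected and their differences ran from 0.21 to 0.78, the largest being that of the probe used.

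The largest fall was that of Il1rl1, which encodes ST2, the receptor for interleukin-33. It stood at 2.42, 5.51, 3.47 and 3.91 with DMSO in unstimulated Th1, reactivated Th1, unstimulated Th2 and reactivated Th2 cells. With JQ1 it stood at 1.5, 4.55, 2.31 and 2.66. The JQ1 array was lower in each context, while the contexts themselves differed by more than the drug moved the gene. The fitted fall was -1.07 (SE 0.08; limma, adjusted p 0.000326). The 3 detected probes of Il1rl1 gave falls between -1.07 and -0.25.

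Il21, a cytokine of activated T helper cells, fell by 0.98 (SE 0.15; limma, adjusted p 0.00621). The values with DMSO were 4.85, 7.15, 0.54 and 4.48, and with JQ1 3.74, 5.87, 0.28 and 3.22. The fall was over 1 in 3 contexts and -0.27 in unstimulated Th2 cells, where the level was lowest.

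Bcl3, an IkB protein that acts with NF-kB in the nucleus, fell by 0.93 (SE 0.11; limma, adjusted p 0.003). Its values were 1.73, 0.03, -0.85 and -0.62 with DMSO and 1.17, -1.08, -2.17 and -1.37 with JQ1. The largest of the 4 falls, -1.31, was in unstimulated Th2 cells, in contrast to Il21.

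The remaining genes among the 15 largest falls were Upb1 (pyrimidine catabolism), Il10, Rtp4 and Oasl2 (both interferon-inducible), Padi2 (a protein-citrullinating enzyme), Ccr2 (a chemokine receptor), Esm1, Hc (complement component C5), Lgals3bp, Gstt1 (a glutathione transferase), Mcoln2 (an endolysosomal channel) and Scin (an actin-severing protein). Their differences ran from -1.01 for Upb1 to -0.76 for Scin (limma, adjusted p 0.0492 at most). Of the 15 largest falls, 7 stayed called with the slide as a fixed block, 1 with 12 arrays and none with the scanner software's ratio, against 10, 10 and 2 of the 15 largest rises. None of the 30 genes with the largest changes was called in every alternative. Oasl2 kept its call in 4 and Il10 in 6 of 18 alternatives. Ptpn5, at -1.06, is not among the 15 because it was slightly higher in unstimulated Th2 cells. In the sample channel 9 of the 15 were well above background on all 8 arrays. The sample signal of Il10 was above background on 2 of 4 JQ1 arrays, that of Esm1 on 2 of 4 JQ1 and 3 of 4 DMSO arrays, and those of Upb1, Hc, Oasl2 and Scin on 3 of 4 JQ1 arrays.

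The groups overlapped for all 15 falls, whereas all 4 JQ1 arrays lay below all 4 DMSO arrays for 0.487% of all genes tested. The SE was 0.08 to 0.23 for the falls and 0.06 to 0.12 for the rises.

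**Figure D2:**
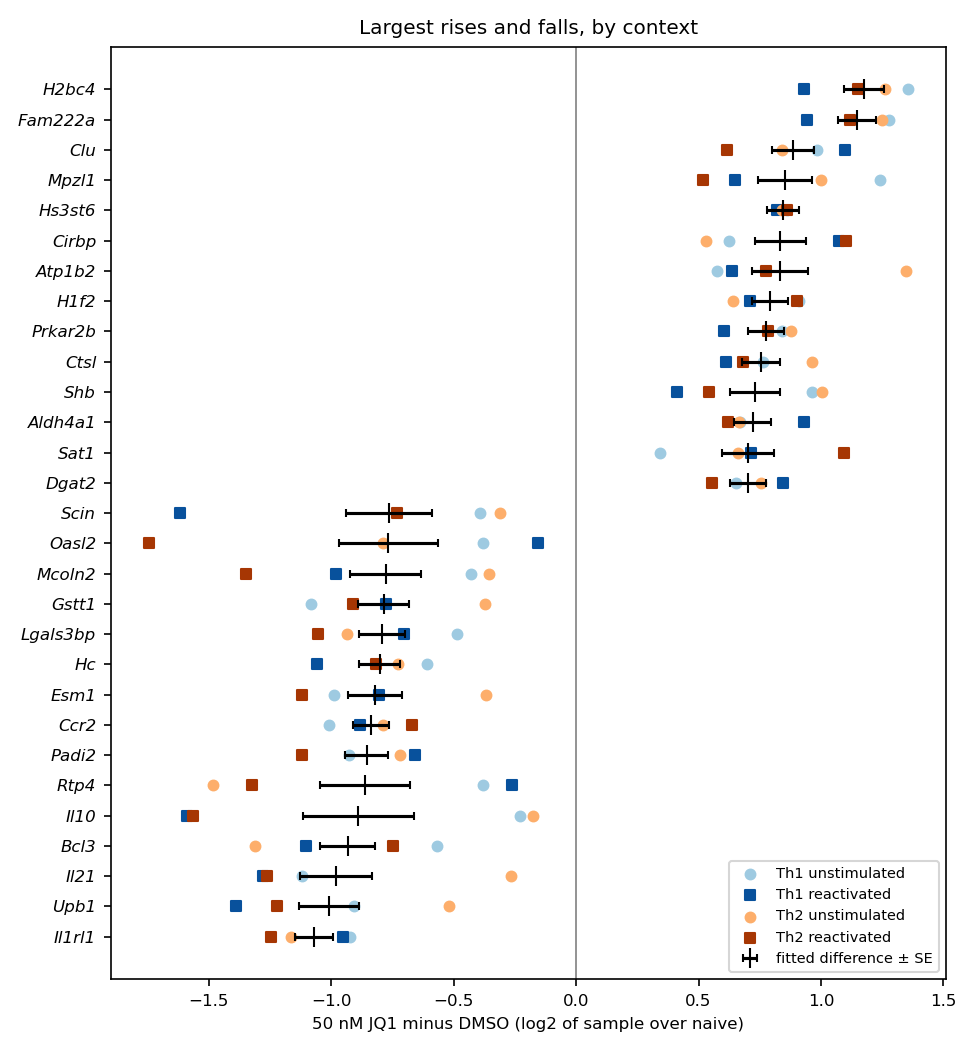
Difference between 50 nM JQ1 and DMSO (log2, x axis) for genes among the 15 largest rises and for the 15 largest falls. Points are the 4 contexts (blue Th1, orange Th2; circles unstimulated, squares reactivated) and black marks are the fitted difference ± SE; the points of the falls spread wider than those of the rises, most of all for Il10, Oasl2 and Rtp4.

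Components of the pathway that JQ1 acts on were then examined. The short gene lists from here on were likewise chosen with earlier results of these data known. Their shares beside those of all genes are descriptions, with no test. Of 26 genes tested that encode BET proteins, P-TEFb and elongation factors, 2 rose (7.69%, against 2.8% of all genes tested) and none fell, and their median difference was 0.05 against -0.01 for all genes tested. Under median centring that median was -0.01. The 2 that rose were Hexim1 and Cdk12, an elongation kinase, at 0.26 (SE 0.07; limma, adjusted p 0.0481). Cdk12 kept its call in only 2 of 19 alternatives, and its 3 detected probes gave 0.098 to 0.26, the largest being the one used. Brd2, a BET protein, differed by 0.10 (SE 0.09; limma, adjusted p 0.529).

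Of 43 histone genes tested 5 rose (11.6%, against 2.8% of all genes) and none fell, with a median of 0.10. They were H2bc4, H1f2, H2ac18, H2bc21 and H1f10, of which H2ac18 kept its call in 6 of 19 alternatives, H2bc21 in 6 of 18 and H1f10 in 8 of 19. H1f2 rose by 0.79 (SE 0.07; limma, adjusted p 0.0015), and the other 3 by 0.36 to 0.41. The median over the histone genes was -0.15 in unstimulated and 0.00 in reactivated Th1 cells but 0.17 and 0.29 in Th2 cells, so the list as a whole did not move one way.

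Cytokines of activated cells and ligands of the TNF family were among the genes that fell. Of 22 tested, 11 fell (50%, against 4.64% of all genes) and none rose, with a median of -0.36. Osm (oncostatin M) fell by 0.64 (SE 0.09; limma, adjusted p 0.006). Its groups narrowly did not overlap, at -0.17 to 0.41 with DMSO and -0.53 to -0.19 with JQ1. All JQ1 arrays lay below all DMSO arrays for 0.487% of all genes tested. The others were Il21, Fasl, Tnfsf10, Ebi3, Ltb, Cd70, Lta, Csf1, Tnfsf11 and Csf2, with falls of -0.98 to -0.35. Tnfsf11 kept its call in 7 of 19 alternatives and Csf2 in 7 of 17, against 14 of 19 for Osm and Il21.

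Lineage genes fell in part. Of 24 Th1 genes tested 7 fell (29.2%) and none rose, with a median of -0.25, and of 19 Th2 genes 6 fell (31.6%) and none rose, with a median of -0.19, against 4.64% lower and 2.8% higher of all genes. Among the Th1 genes both chains of the interleukin-18 receptor fell, Il18rap at -0.68 (SE 0.12; limma, adjusted p 0.00948) and Il18r1 at -0.62 (SE 0.07; adjusted p 0.00263 by the same test). Fasl fell by 0.64, Xcl1 by 0.46, Stat4, which carries the interleukin-12 signal, by 0.44 and Lta by 0.40. Cxcr3, a T-bet target, differed by -0.66 but did not pass the test (SE 0.18; adjusted p 0.0528).

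Ifng, the defining Th1 cytokine, fell by 0.30 (SE 0.08; limma, adjusted p 0.0455). Its values were 7.15, 8.59, 0.65 and 6.20 with DMSO and 6.95, 8.44, 0.29 and 5.70 with JQ1. The differences were -0.20 and -0.15 in Th1 cells and -0.50 in reactivated Th2 cells. In unstimulated Th2 cells the JQ1 array was not well above background, so the difference of -0.36 there has no exact size. The naive channel of Ifng ranged over 4.95 (log2) between the 8 arrays, so its ratio does not follow the sample alone. In Cy3 alone its fall was -0.42.

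Tbx21 was not called, at -0.43 (SE 0.17; limma, adjusted p 0.157). It differed by -0.26 and -0.16 in Th1 cells, where it was high, by -0.02 in unstimulated Th2 cells and by -1.30 in reactivated Th2 cells. In unstimulated Th2 cells its JQ1 array was not well above background. The difference there has no exact size, and a fall could hardly have been seen, yet it enters the fitted value. Gata3 was not called either, at -0.05 (SE 0.10; adjusted p 0.802), and its sign turned in Cy3 alone, to 0.01.

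Among the Th2 genes those that fell were Il1rl1, Il10, Ccr4, Il13, Gfi1 and Il4. Not all of these marked Th2 cells here. With DMSO Il10 was no higher in Th2 than in Th1 cells in either state. Il1rl1 was higher in unstimulated Th2 than Th1 cells (3.47 against 2.42) but lower in reactivated ones (3.91 against 5.51). Il13 was above background on 2 of 4 JQ1 and 3 of 4 DMSO arrays. Ccr4, a chemokine receptor, fell by 0.57 (SE 0.08; limma, adjusted p 0.00424), from 1.64, 1.11, 3.08 and 2.82 to 1.26, 0.51, 2.50 and 2.08. Il4 fell by 0.35 (SE 0.09; limma, adjusted p 0.0455). Its values with DMSO were 0.12, 3.07, 3.52 and 8.02 and with JQ1 0.10, 2.52, 3.08 and 7.62, and it was above background on 3 of 4 arrays of each group. Ifng and Il4 each passed the threshold narrowly, and Ifng missed it when any 1 of the 4 pairs was left out, and Il4 when any but the unstimulated Th1 pair was (adjusted p 0.067 to 0.166 for Ifng and 0.021 to 0.17 for Il4 over the 4 fits).

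Receptors at the cell surface were counted next. Of 19 costimulatory and inhibitory receptors 9 fell (47.4%, against 4.64% of all genes) and none rose, with a median of -0.32, and 15 of the 19 were lower in 4 of 4 contexts, against 17.2% of all genes. Cd5 fell by 0.70 (SE 0.13; limma, adjusted p 0.0116), Tnfrsf25 (death receptor 3) by 0.66, Cd69, an early activation marker, by 0.59 and Tigit by 0.57. Cd27, Tnfrsf18 (GITR), Cd6, Havcr2 (Tim-3) and Cd44 had differences of -0.48 to -0.32, all called. They kept their calls in 12 of 19, 9 of 19, 10 of 19, 9 of 18 and 6 of 19 alternatives, in that order. Cd5 stood at -1.12, -0.89, -0.96 and -2.38 with DMSO and at -1.52, -2.08, -1.33 and -3.21 with JQ1.

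Of 29 cytokine receptors 5 fell (17.2%), and of 25 chemokines and chemoattractant receptors 6 fell (24%), against 4.64% of all genes, with none higher in either list and medians of -0.16 and -0.26. Ccr2 fell by 0.84 (SE 0.08; limma, adjusted p 0.00149) in both lineages, from 2.52, 1.15, 3.96 and 1.25 to 1.51, 0.26, 3.17 and 0.58. Il7r, the receptor for the survival cytokine interleukin-7, fell by 0.60, Ccr6 by 0.51, Cxcl10 by 0.44, Gpr183 by 0.41 and Il21r by 0.31. Il21r kept its call in 6 of 19 alternatives, against 15 of 19 for Ccr2.

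Interferon-stimulated genes fell in part. Of 23 tested, 9 fell (39.1%, against 4.64% of all genes) and none rose, with a median of -0.36. The median was -0.12 in unstimulated and -0.17 in reactivated Th1 cells against -0.51 and -0.70 in Th2 cells. The difference between Th1 and Th2 cells did not pass the test for any of them (lowest adjusted p 0.302 by limma), with 12 of the 23 at an unadjusted p below 0.05 against 4.83% of all genes tested, and the Th2 pairs are those with the unclear control time and the change of slide.

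Oas1a, a sensor of double-stranded RNA, showed the pattern. Its fitted fall was -0.75 (SE 0.19; limma, adjusted p 0.0393), and it kept its call in 8 of 19 alternatives. It stood at -4.12, -4.13, -3.29 and -1.67 with DMSO and at -4.53, -4.17, -4.41 and -3.11 with JQ1. The control of reactivated Th2 cells was the highest array and fell by 1.44, while reactivated Th1 cells, whose control was the lowest, differed by -0.05. Gbp5, a guanylate-binding protein, fell more evenly, from 4.21, 1.75, -0.38 and 0.90 to 3.64, 1.21, -0.92 and 0.20.

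The other 7 that fell were Oasl2, Gbp3, Irgm1, Isg15, Ifi44, Cxcl10 and Igtp, with differences of -0.77 to -0.36. Ifi44 was above background on 1 of 4 JQ1 and 2 of 4 DMSO arrays. All 9 had a promoter in the table, and 7 of the 9 held the interferon response motif. Of the 11 interferon-stimulated genes that were not called and had a promoter, 6 held it. The windows of Oas1a (chr5:120907526-120907775, minus strand) and Irgm1 (chr11:48871421-48871670, minus strand) are printed as the largest falls with such a match among genes with exactly 1 entry, in the same build and orientation, with the matches in capitals.
Oas1a: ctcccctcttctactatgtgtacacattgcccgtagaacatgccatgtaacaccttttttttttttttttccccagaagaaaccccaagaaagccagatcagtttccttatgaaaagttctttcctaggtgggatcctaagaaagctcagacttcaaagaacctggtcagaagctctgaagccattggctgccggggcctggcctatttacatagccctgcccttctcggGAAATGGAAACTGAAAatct
Irgm1: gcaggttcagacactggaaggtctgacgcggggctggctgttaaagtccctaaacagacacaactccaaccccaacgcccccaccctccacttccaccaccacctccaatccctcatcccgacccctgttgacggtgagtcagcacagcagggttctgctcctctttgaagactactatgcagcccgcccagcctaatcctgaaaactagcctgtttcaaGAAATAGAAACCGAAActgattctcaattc
In each window 2 overlapping matches formed the run in capitals, close to the gene start.

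**Figure D3:**
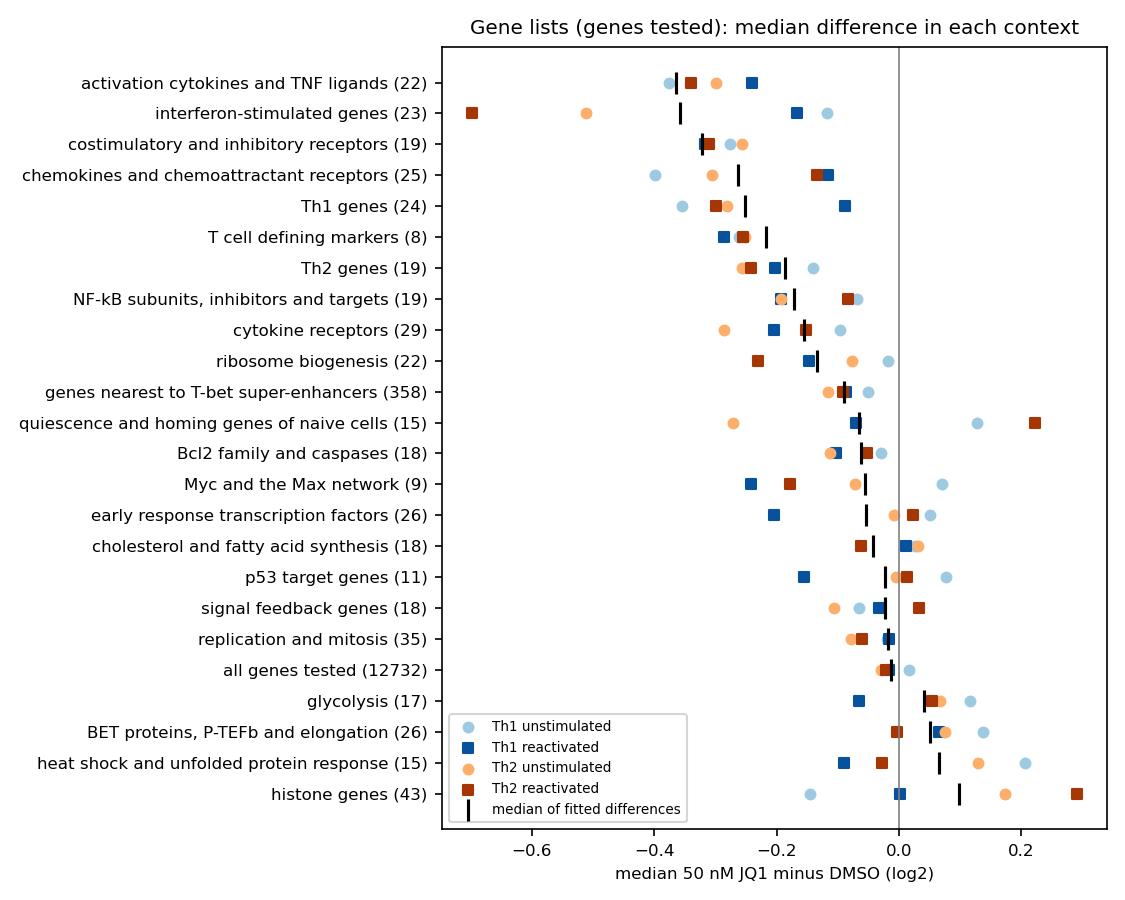
Median difference between 50 nM JQ1 and DMSO (log2, x axis) of gene lists (markers of other cell types left out), with the number of genes tested in parentheses, in the 4 contexts (coloured points) and for the fitted differences (black bars). Cytokine, receptor and interferon lists lie left of the median of all genes tested (-0.01), and the interferon list lies at -0.12 and -0.17 in Th1 and at -0.51 and -0.70 in Th2 cells.

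Transcription factors of the early response moved in both directions. Of 26 tested, 4 fell (15.4%) and 2 rose (7.69%), against 4.64% and 2.8% of all genes, and the median was -0.05. Batf fell by 0.50 (SE 0.07; limma, adjusted p 0.00607), and Irf4, its partner at composite sites, by 0.38 (SE 0.07; adjusted p 0.0151). Batf3 fell by 0.32. Egr1 rose by 0.50 (SE 0.10; limma, adjusted p 0.0169), from 0.44, 1.89, -2.53 and 2.51 to 1.22, 2.06, -2.16 and 3.19, and Klf4 rose by 0.36.

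Myc, which BET inhibitors lower in many tumour cells, fell by 0.38 (SE 0.07; limma, adjusted p 0.0126). Its values were -0.05, 2.52, -1.18 and 3.27 with DMSO and -0.44, 2.28, -1.65 and 2.85 with JQ1, so that reactivated cells kept most of their Myc. Of 9 genes of Myc and the Max network tested, 2 fell, Myc and Mxd1. Mxd1 fell by 0.32 as a ratio but was 0.18 higher in Cy3 alone. Of 22 ribosome biogenesis genes 1 fell (Polr1b, at -0.37), a share of 4.55% that is near the 4.64% of all genes, with a median of -0.13.

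The remaining lists are read against the 4.64% of all genes tested that fell and the 2.8% that rose. Of 35 genes of replication and mitosis and of 17 of glycolysis none was called, with medians of -0.02 and 0.04, which turned to 0.03 with the spike-in scale and to -0.03 in Cy3 alone. Of 19 NF-kB subunits, inhibitors and targets 3 fell (Bcl3, Ltb and Cd83), with a median of -0.17, a share of 15.8%. Of 18 signal feedback genes 1 fell (Rgs1). Of 18 genes of the Bcl2 family and caspases 2 fell (11.1%), Cflar, an inhibitor of caspase-8 activation, at -0.55 and Bax at -0.37, and Bax was also the only one called of 11 p53 targets. Of 18 genes of cholesterol and fatty acid synthesis 1 rose (Dhcr7, at 0.35) and of 15 heat shock and unfolded protein genes 1 rose (Hspa1a, at 0.41). Among 15 genes of naive cells Tob1, an antiproliferative protein, rose by 0.62 and 2 genes fell, Il7r among them.

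Genes that lie nearest to mouse super-enhancers bound by T-bet, a list taken from the study's own binding data, were counted too. Of 358 tested 51 fell (14.2%) and 6 rose (1.68%), with a median of -0.09. Over all genes tested 4.64% fell and 2.8% rose, with a median of -0.01. The study did not choose this list on these arrays. It holds Il1rl1, Il10, Hc, Il18r1, Il7r, Cd69 and Tigit, described above.

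Markers of T cells fell in part too. Of 8 defining markers 3 fell (37.5%, against 4.64% of all genes), Cd5, Lck at -0.42 and Cd2 at -0.40, and their summed Cy3 signal was 125631 to 238752 with DMSO and 95362 to 180231 with JQ1. The markers of B, myeloid, dendritic, CD8 T, NK, regulatory T and erythroid cells held 3 called genes among 20 tested, all lower: Flt3 at -0.37, Nrp1 at -0.54 and Ikzf4 at -0.34. Foxp3, which defines regulatory T cells, differed by 0.02. Summed B cell signal was 1414 to 5597 with DMSO and 1237 to 4441 with JQ1, that of myeloid markers 12635 to 19523 and 13137 to 18992, and that of dendritic markers 54187 to 69744 and 56402 to 64526. That of regulatory T cell markers was 1546 to 2332 with DMSO and 1062 to 1860 with JQ1. For CD8 T cell markers it was 184 to 354 and 172 to 294, and for erythroid markers 546 to 721 and 530 to 666. That of NK markers was 212 to 2006 and 218 to 1125, and 2 of the 3 were at no time well above background. The NK marker that was tested, Klrd1, was not called (-0.46, SE 0.16; limma, adjusted p 0.114) but differed by -0.98 and -0.80 in the Th1 pairs. The part of other cells in these results was not tested, and in bulk RNA fewer cells of a type and less RNA per cell cannot be told apart.

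Whether JQ1 acted differently after reactivation was tested gene by gene, as the effect in reactivated minus that in unstimulated cells. The contrast called 6 genes (0.0471% of those tested), 5 of them lower and 1 higher, and 1192 genes (9.36%) had an unadjusted p below 0.05. Il10, a suppressive cytokine, stood at 0.38 and 0.22 in unstimulated Th1 and Th2 cells with DMSO and at 2.85 and 2.33 in reactivated ones. JQ1 left it at 0.15 and 0.04 in unstimulated cells and at 1.26 and 0.76 in reactivated cells. The contrast was -1.38 (SE 0.13; limma, adjusted p 0.00692).

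Il33, the ligand of ST2, went from 4.32 to 2.30 in reactivated Th1 and from 3.14 to 1.45 in reactivated Th2 cells. In unstimulated cells it was well above background on none of the 4 arrays, so a fall could not have been seen there, and its contrast does not test whether the effect of JQ1 depends on reactivation. Nor do those of Il10 and Ptpn5 settle it. Il10 was above background on neither unstimulated JQ1 array and Ptpn5 on 1 of the 2, and both were low in unstimulated Th2 cells with DMSO (0.22 and 0.33), so a fall as large as in reactivated cells could not have been seen there.

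Ptpn5, a tyrosine phosphatase, Car12, a carbonic anhydrase, and Cbr3, a carbonyl reductase, gave contrasts of -1.65, -1.15 and -1.11. All 3 were higher in reactivated than in unstimulated cells with DMSO. Car12 moved in opposite directions: it was higher by 0.53 and 0.41 in unstimulated cells and differed by -0.73 and -0.61 in reactivated cells, so its mean difference was only -0.10. Gm13889 was the gene with a higher effect in reactivated cells, by 1.38 (SE 0.16; limma, adjusted p 0.0199). It went from 3.53 with DMSO to 4.91 with JQ1 in reactivated Th1 and from 4.48 to 5.72 in reactivated Th2 cells, and differed by 0.12 and -0.24 in unstimulated cells.

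The contrast of Th1 minus Th2 effects called no gene by limma, and 615 genes (4.83% of those tested) had an unadjusted p below 0.05. 

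At least 1.5-fold changes in a single pair, which have no replicate check, numbered 125 higher and 123 lower in unstimulated Th1 cells (0.982% and 0.966% of genes). They numbered 82 and 195 in reactivated Th1 cells (0.644% and 1.53%). In unstimulated Th2 cells they were 73 and 196 (0.573% and 1.54%), and in reactivated Th2 cells 136 and 272 (1.07% and 2.14%). The SD of all differences was 0.22 to 0.25 in the 4 pairs. The naive channel, which held no drug, had an SD of 0.11 between the arrays of each Th1 pair and of 0.16 and 0.17 for the Th2 pairs. With the spike-in scale the unstimulated Th1 pair had 2455 genes higher and 6 lower, and the reactivated Th2 pair 22 and 1313.

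The called genes were then set against the response to reactivation. In Th1 cells with DMSO at 24 hr, arrays outside the fit, 1220 genes were raised and 1544 lowered by at least 2-fold on reactivation. With 50 nM JQ1 112 of the raised genes fell (9.18%) and 37 rose (3.03%), and of the lowered genes 165 fell (10.69%) and 62 rose (4.02%). Of the 9964 other genes 314 fell (3.15%) and 257 rose (2.58%). The median difference of the raised genes was 0.00 and -0.09 in unstimulated and reactivated Th1 cells and -0.04 and -0.15 in Th2 cells. That of the lowered genes was -0.03, -0.01, -0.10 and 0.02 in the same order.

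A longer treatment with a higher dose was available for Th1 cells, as 2 pairs of 500 nM JQ1 and DMSO at 24 hr that share no array with the fit. Of the 356 genes that rose at 50 nM, 345 were higher there in unstimulated cells (96.9%) and 349 in reactivated cells (98%), against 44.8% and 47.9% of all genes tested. Of the 591 that fell, 570 (96.4%) and 540 (91.4%) were lower, against 55.2% and 52.1%. The median difference of the genes that rose was 0.86 in unstimulated and 0.97 in reactivated cells, and that of the genes that fell -0.97 and -0.79. Over all genes tested, 8.21% and 9.92% were at least 1.5-fold higher in these pairs and 13.3% and 13.6% at least 1.5-fold lower. Among the genes that rose at 50 nM, 72.2% and 75.8% were at least 1.5-fold higher, and among those that fell, 71.6% and 65.5% were at least 1.5-fold lower. All 15 of the largest rises were at least 2-fold higher in both pairs, and 8 of the 15 largest falls were at least 2-fold lower in both. Dose, time and slide all differed between these arrays and those at 50 nM.

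In the 24 hr DMSO arrays the called genes were set against naive cells. For the genes that fell the median value was 0.41 in unstimulated and 0.40 in reactivated Th1 cells, against 0.07 and 0.06 for all genes tested. For the genes that rose it was 0.14 and -0.02. At least 2-fold above naive were 31.8% and 35.7% of the genes that fell and 13.4% and 19.8% of all genes. At least 2-fold below naive were 12.9% and 25.9% of the genes that fell and 7.27% and 16% of all genes. Of the genes that rose, 14.6% and 21.3% were at least 2-fold above naive and 8.43% and 25.8% at least 2-fold below.

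**Figure D4:**
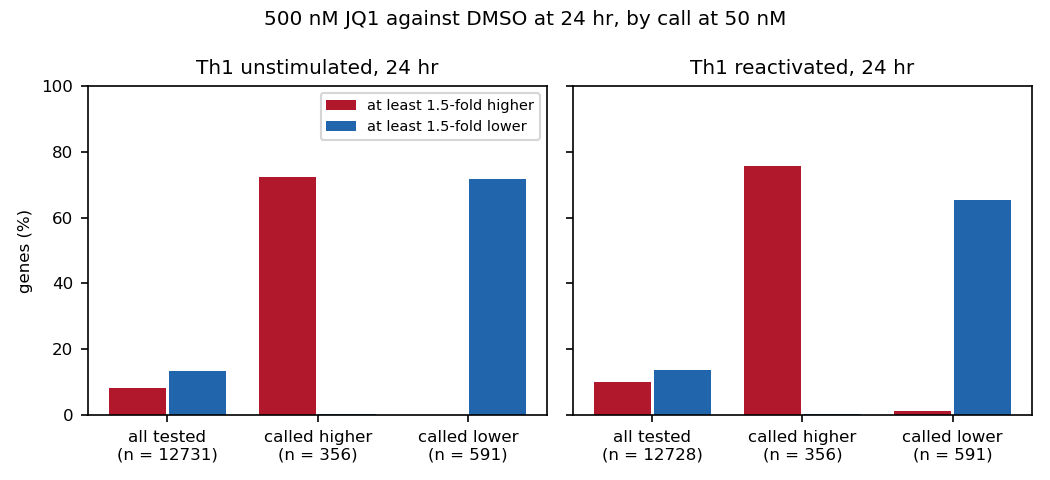
Share of genes (%, y axis) at least 1.5-fold higher (red) or lower (blue) with 500 nM JQ1 than with DMSO at 24 hr in Th1 cells, 1 pair of arrays per panel, for all genes tested and for genes called higher or lower at 50 nM. Of the genes called higher 72.2% and 75.8% were at least 1.5-fold higher, and of those called lower 71.6% and 65.5% were at least 1.5-fold lower.

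Values at 500 nM and 6 hr in the same contexts share the DMSO arrays with those at 50 nM, so both are given side by side. H2bc4 differed from DMSO by 1.36, 0.93, 1.26 and 1.15 at 50 nM and by 2.85, 2.88, 3.06 and 3.01 at 500 nM. Hexim1 differed by 0.72, 0.40, 0.77 and 0.64 at 50 nM and by 1.78, 1.60, 1.83 and 1.74 at 500 nM. Il1rl1 differed by -0.92, -0.95, -1.17 and -1.25 at 50 nM and by -2.22, -3.79, -3.07 and -2.73 at 500 nM.

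For the 15 largest rises the median differences at 50 nM were 0.84, 0.71, 0.84 and 0.78, and at 500 nM 2.05, 1.82, 2.05 and 1.76. For the 15 largest falls they were -0.61, -0.95, -0.72 and -1.12 at 50 nM and -1.52, -1.88, -1.21 and -2.28 at 500 nM. Rtp4 and Oasl2 were the exceptions in reactivated Th1 cells, where they differed by -0.26 and -0.15 at 50 nM and by 0.20 and 0.44 at 500 nM. Myc differed by -0.39, -0.24, -0.47 and -0.42 at 50 nM and by -0.35, -0.71, -0.48 and -0.94 at 500 nM. Brd2 differed by 0.22, 0.25, 0.15 and -0.22 at 50 nM and by 1.12, 1.01, 0.68 and 0.90 at 500 nM.

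**Figure D5:**
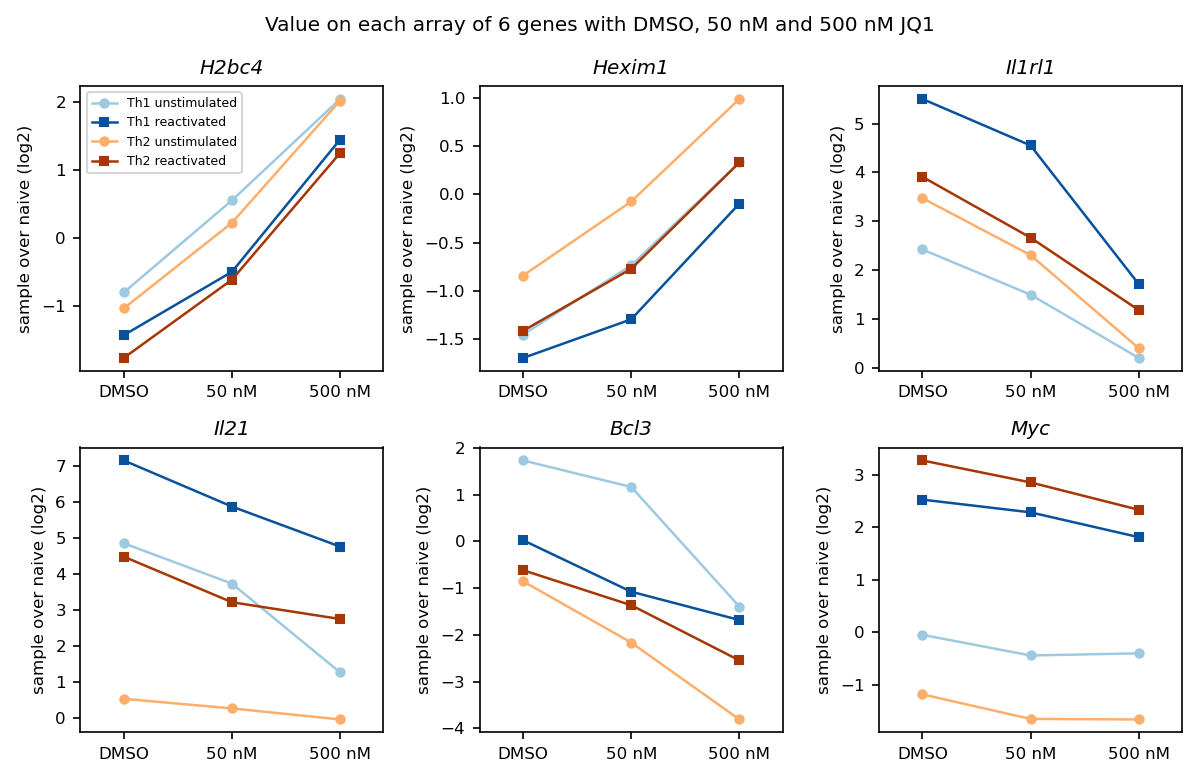
Log2 ratio of sample over naive (y axis) on each array with DMSO, 50 nM and 500 nM JQ1 (x axis) for 6 genes; each line joins the 3 arrays of a context, and the DMSO array is shared by both doses. H2bc4 and Hexim1 rise and Il1rl1, Il21 and Bcl3 fall in each context, and Myc of unstimulated cells is at nearly the same level at both doses.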

How the data were processed

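RNA of each sample (Cy3) was hybridised with RNA of naive CD4 T cells (Cy5) to 2-colour Agilent arrays. The scanner intensity files, as deposited, held spot intensities and a log10 ratio that the authors' Feature Extraction software (10.7.1.1) had background-subtracted and dye-normalized. Log2 ratios against naive cells, made by the authors for 34710 probes, were deposited as well, and their normalization is not given in the sources used here.

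Median intensities of all 62976 spots were background-corrected with normexp (offset 50), normalized by loess and turned to sample over naive in limma 3.58.1 (R 4.3.3). Flagged and control spots were left out. Of 55681 probes, 26437 carried 1 of 20028 symbols through RefSeq (GRCm38.p6, for names only), and the other 29244 were not used. The brightest probe stood for a gene. Genes well above background in Cy3 on at least 3 of the 8 arrays were fitted with the context as a block, and called at a Benjamini-Hochberg adjusted p below 0.05. Single pairs were counted at 1.5-fold. The genes named were the 15 largest called rises and falls with 1 direction in 4 of 4 contexts, above background on at least 4 arrays, the 5 leading interaction genes each way, the called and 4 most changed members of each list, and genes of known role. Members and lists were chosen with earlier results of these data known. Nothing says that arrays came from separate cultures, so p-values measure only the spread between these arrays, whose number limits the precision. A few items are not reported here. The fits were tested on simulated data. The motifs were searched as fixed letters. The alternatives were other signals, scalings, filters, blocks and array sets, each pair left out, and, chosen after seeing the data, the pairs of each lineage alone.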

Additional observations from a re-analysis of the deposited data

Results flagged for a closer look

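In 38 genes the differences of the 4 contexts were examined for 1 that stood apart, which chance gives in about 1 of 20 groups. Aldh4a1 stood apart in reactivated Th1 cells, where its difference was 0.93 (log2), and Il21 in unstimulated Th2 cells, where it was -0.27.

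The contrast of the JQ1 effect between reactivated and unstimulated cells called 6 genes by limma. The effect in reactivated minus that in unstimulated cells was 1.38 for Gm13889, -1.86 for Il33, -1.38 for Il10, -1.65 for Ptpn5, -1.15 for Car12 and -1.11 for Cbr3. In unstimulated cells Il33 was not above background, Il10 was not on the JQ1 arrays and Ptpn5 was on 1 of 2 JQ1 arrays, so the values of these 3 genes do not show a difference in the effect.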

How the results depend on the processing

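The 947 genes called became 2 with the scanner software's log ratio, 99 with the spike-in shift, 46 with 12 arrays, 54 with the slide as a fixed block, 252 in the Th2 pairs alone, and 0 without the context block or in the Th1 pairs alone. Leaving out 1 pair gave 292 (without unstimulated Th2) to 626 genes. Of the 46 and the 54, 46 and 50 were among the 947 in the same direction. The 6 genes called in the contrast with reactivation became 0 with the software's ratio and with 12 arrays, 11 with median centring, 2 in the deposited table, 3 when above background on all 8 arrays, and 4 to 116 with 1 pair left out. The Th1 minus Th2 contrast called 7 genes with the spike-in shift.

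Changes of at least 1.5-fold in unstimulated Th1, reactivated Th1, unstimulated Th2 and reactivated Th2 cells numbered 1394, 1367, 1341 and 1630 with the software's ratio. In unstimulated and reactivated Th2 cells they numbered 480 and 667 with median centring and 540 and 688 in the deposited table, and in unstimulated Th2 cells 474 in Cy3 alone. With the spike-in shift they numbered 2461 in unstimulated Th1 and 1335 in reactivated Th2 cells.

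Single genes changed sign as follows. With the software's ratio Atp1b2 was -0.051, Ccnb1 0.013 and Cdk6 0.30. In Cy3 alone Gata3 was 0.0063 and Mxd1 0.18, and Mxd1 was 0.17 in the deposited table. Aurkb was -0.16 with the slide as a fixed block and in the Th1 pairs alone, and Brd2 -0.033 in the Th2 pairs alone. With 1 pair left out Gata3 ran from -0.16 to 0.043 and Car12 from -0.31 to 0.11. The causes were not tested.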
